A study of Mus musculus with 98 samples.

Results

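Fibroblasts of the newborn mouse thymus that carry CD26 were compared with those that do not. The members are the 12 bulk RNA-seq libraries whose titles give the newborn age and the sort gp38+CD26+ (6 libraries) or gp38+CD26- (6 libraries), out of 84 bulk libraries and 98 samples in all, and the choice used labels and no measured value. The study profiled the stroma of the thymus, in single cells from the embryo to 4 weeks of age and in bulk in sorted populations at birth (P0) and at 4 weeks. All 12 libraries came from wild-type mice and from live CD45- cells, so that blood cells were gated out of both populations. The study's methods name C57BL/6 for its wild-type mice in general and do not say which mice gave the bulk libraries. The study describes the sorted populations as parts of the Ter119-EpCAM- stroma, a gate that also takes out red and epithelial cells, while the labels of the bulk libraries name CD45 alone. Neither population was manipulated, and they differ in the surface protein CD26 alone as far as the labels say. Each population holds 3 libraries with the title prefix TXCK and 3 with the prefix DFCK, whose meaning is not given in the sources used here. Nothing in the labels says how many animals went into a library, so p-values measure the spread between libraries, which may be technical.

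gp38 (podoplanin, the product of Pdpn) marks fibroblasts in lymphoid organs, and CD26 is dipeptidyl peptidase 4, a cell surface enzyme that trims peptides and chemokines and is the product of Dpp4. In connective tissues, CD26 marks fibroblasts of the outer sheaths of organs and vessels, which lay down a fibrous, elastic matrix. In the thymus, fibroblasts lie in the capsule and its septa and, separately, in the medulla, while pericytes and smooth muscle cells, together called mural cells, wrap the vessels.

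The libraries held 8454267 to 14453515 counts in genes in gp38+CD26+ and 10004254 to 13753766 in gp38+CD26-. Replicate 4 of gp38+CD26+ (S55, prefix DFCK) stood apart from the rest. Its score on the first principal component of the 12 libraries was 226, against -50.3 to 14.1 in the others, and it had 12033 genes with a count, against 13243 to 15092. The total of changed genes, and each list count that moved, are therefore also given without it.

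The promoters below are those of 2 genes that were higher in gp38+CD26+ cells, Dpp4 and Ackr3, and of 2 that were lower, Vtn and Rgs5, and they are shown because none of these genes overlapped between the populations. Each runs from 250 bases before to 50 bases after the annotated start, on the strand of the gene, in the RefSeq annotation of build GRCm38.p6. Capitals mark TATAAA, the core of the TATA box, read on both strands (TATAAA or TTTATA), and the matches may overlap. The letters are marked wherever they fall in the window, without regard to their distance from the start, so a match is not shown to be a working TATA box. The positions are chr2:62412182-62412481 on the minus strand for Dpp4, chr1:90203730-90204029 on the plus strand for Ackr3, chr11:78498870-78499169 on the plus strand for Vtn and chr1:169655251-169655550 on the plus strand for Rgs5.
Dpp4: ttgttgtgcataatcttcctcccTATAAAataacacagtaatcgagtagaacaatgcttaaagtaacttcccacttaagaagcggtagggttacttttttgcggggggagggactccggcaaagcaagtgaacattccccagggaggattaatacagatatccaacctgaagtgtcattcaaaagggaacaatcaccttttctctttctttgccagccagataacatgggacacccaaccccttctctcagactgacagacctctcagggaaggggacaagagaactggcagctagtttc
Ackr3: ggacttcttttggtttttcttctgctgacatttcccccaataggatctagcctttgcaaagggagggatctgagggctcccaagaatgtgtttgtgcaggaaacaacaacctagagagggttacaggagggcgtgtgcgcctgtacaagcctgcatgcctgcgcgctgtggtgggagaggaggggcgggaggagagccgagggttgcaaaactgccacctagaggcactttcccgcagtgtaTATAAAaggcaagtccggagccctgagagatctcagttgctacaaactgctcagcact
Vtn: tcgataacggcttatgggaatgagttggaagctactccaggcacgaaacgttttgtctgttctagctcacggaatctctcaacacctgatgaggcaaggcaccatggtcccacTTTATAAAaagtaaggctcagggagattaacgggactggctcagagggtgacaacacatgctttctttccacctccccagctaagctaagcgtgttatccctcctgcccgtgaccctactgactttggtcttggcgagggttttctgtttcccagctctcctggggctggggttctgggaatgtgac
Rgs5: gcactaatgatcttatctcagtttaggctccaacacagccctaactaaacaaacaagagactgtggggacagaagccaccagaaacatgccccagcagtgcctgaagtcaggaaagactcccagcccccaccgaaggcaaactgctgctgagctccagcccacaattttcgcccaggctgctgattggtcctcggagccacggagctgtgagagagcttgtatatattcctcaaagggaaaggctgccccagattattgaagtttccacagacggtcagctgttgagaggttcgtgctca
The letters occur once in the windows of Dpp4 and Ackr3, in 2 overlapping matches in that of Vtn and not in that of Rgs5. A promoter was listed for 74.5% of the 216 genes called higher in gp38+CD26+ and for 70.3% of those called lower, and 14.3% and 16.9% of these promoters held the letters. The share was 6.59% of the 8973 promoters of genes tested and 14.2% of all 27025 promoters listed, with the first promoter listed taken for each gene.

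The genes of the sorted proteins were read first, as a check of the labels. Values are CPM, the read count scaled to the size of its library with TMM factors, and compare a gene between libraries and not with another gene. Dpp4 had lowest, median and highest values of 129, 249 and 472.5 CPM in gp38+CD26+ against 0, 7.13 and 26.8 CPM in gp38+CD26- libraries. All 6 gp38+CD26+ libraries lay above all 6 gp38+CD26- libraries, and the log2 fold change was 5.10 ± 0.82 (SE; adjusted p = 0.00265, edgeR's quasi-likelihood test with Benjamini-Hochberg adjustment, as for every adjusted p below). Since the cells were sorted on this protein, the difference is a check and no finding. Pdpn, by which both populations were sorted, was 1.03 ± 0.175 log2 units higher in gp38+CD26+ (437, 474 and 695 against 207, 225 and 368 CPM; adjusted p = 0.00398). Enpep, which encodes Ly51, ranged over 0 to 14.96 CPM in gp38+CD26+ against 7.70 to 38.6 CPM in gp38+CD26- libraries (adjusted p = 0.232). The endothelial Pecam1 had a median of 0 CPM in both populations, as did the epithelial Epcam. Ptprc, which encodes CD45, reached at most 10.3 CPM.

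Of 11967 genes tested, 401 differed at an adjusted p under 0.05, with 216 (1.8% of the genes) higher in gp38+CD26+ and the rest (1.55%) lower. Without replicate 4 of gp38+CD26+ the counts were 224 and 260, and 359 of the 401 genes were called again. The change was over 1 log2 unit in 67.1% of the higher and 75.1% of the lower genes. The 6 and 6 libraries did not overlap in 323 of the 401 genes, and in 575 genes, 4.8%, of all those tested. Within the TXCK libraries alone, 258 genes were called. Within the DFCK libraries alone, which include replicate 4, 8 were called, 7 higher and 1 lower. Of the 79 genes chosen by the naming rule that passed the test, 63 passed it whichever library was left out, and 16 (Aldh1a2, Angpt2, C1s1, Ccnb1, Cd74, Chrdl1, Dkk3, Ednrb, Fgf10, Kif20a, Lzts1, Mmp23, Psmb8, Rrm2, Sema3d and Slc7a2) missed it in 1 or more of these fits. In a fit that held all sorted populations at P0, 35 of the 79 missed it. Among these were the matrix genes Col1a2, Col12a1, Col14a1, Postn, Lox, Dcn, Ecm2, Adamts8 and Mmp23, the signalling genes Fgf7, Fgf10, Tgfbr2, Chrdl1, Fstl1, Fzd4, Dkk3, Angptl2, Vegfd, Pdgfd, Igfbp6, Epha3, Sema3d and Aldh1a2, the transcription factors Sox9 and Nr2f2, and Pdpn, Ifi205, Tenm4, Lpl, Vldlr, Kif20a, Colec12, C1s1 and Agt. In bulk RNA, fewer cells of a type and less RNA per cell cannot be told apart.

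**Figure D1:**
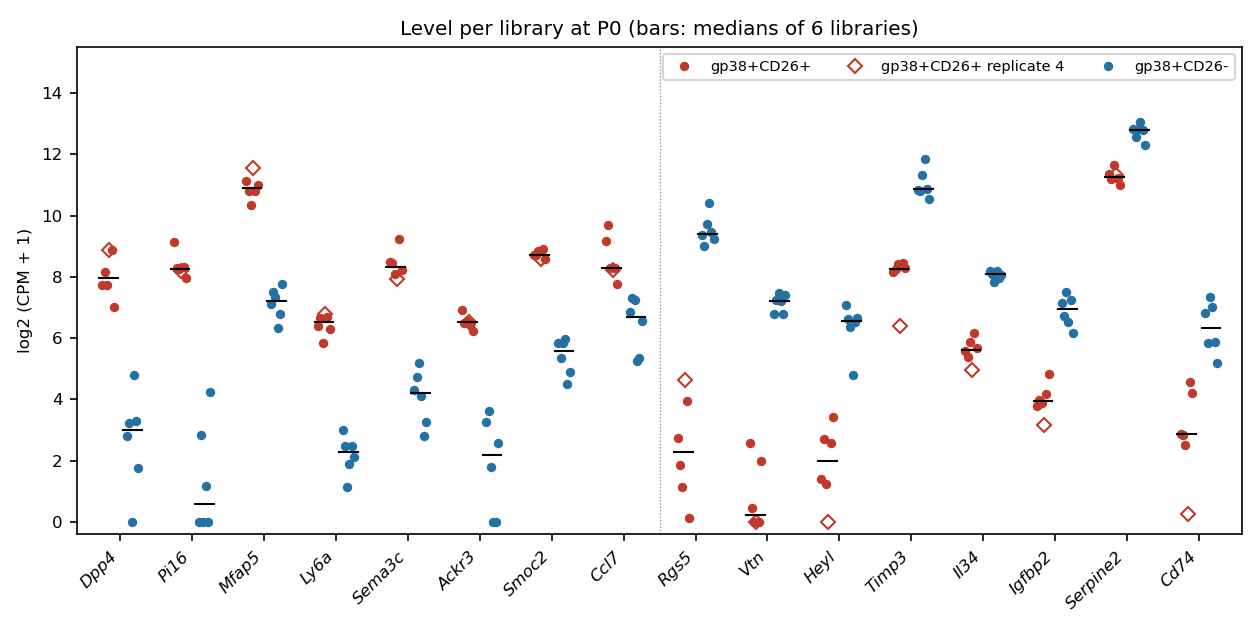
Level of 16 named genes in each of the 12 libraries, as log2 of CPM plus 1, with gp38+CD26+ in red and gp38+CD26- in blue and black bars at the medians of 6 libraries. Genes left of the dotted line were higher in gp38+CD26+ and those right of it lower, and the open diamond is replicate 4 of gp38+CD26+, which lies at 0 CPM for Vtn and Heyl.

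The genes that were higher in gp38+CD26+ by the largest factors were nearly silent in gp38+CD26- cells. Akr1c18, an enzyme that inactivates progesterone, had 68.4, 111.8 and 153 CPM (lowest, median and highest) in gp38+CD26+ and no count in any gp38+CD26- library. With 3 counts over the group as the limit that a count of 0 allows, it was at least 2559-fold higher (adjusted p = 4.91e-06). Pcsk6, a protease that activates secreted growth factors, had 31.7, 53.9 and 114 CPM in gp38+CD26+, no count in gp38+CD26-, and was at least 1496-fold higher by the same limit (adjusted p = 3.05e-05). Both genes were thus read in every gp38+CD26+ library, replicate 4 included.

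Pi16, a secreted protein used as a marker of adventitial fibroblasts, had 246.5, 306 and 567 CPM in gp38+CD26+ against 0, 0.621 and 17.8 CPM in gp38+CD26- libraries (log2 fold change 6.32 ± 1.11, adjusted p = 0.005). Angptl1, a secreted angiopoietin-like protein, was higher by 6.23 ± 1.10 log2 units and the mitochondrial calcium-binding protein gene Efhd1 by 6.05 ± 1.32. The surface proteins Ly6c1 and Ly6a (Sca-1) were higher by 4.54 ± 0.772 and 4.49 ± 0.384, with Ly6a at 56.4 to 110 CPM against 1.204 to 7.08 CPM. Ifi205, an interferon-inducible gene, was higher by 4.42 ± 0.781. Ackr3, a receptor that scavenges the chemokine CXCL12, was higher by 4.33 ± 0.869 (73.7, 90.2 and 120 against 0, 3.74 and 11.3 CPM; adjusted p = 0.012). An absence of overlap between the populations was a condition for naming these genes, so it is no separate result. Ly6c1 and Ifi205 belong to families with close copies, so the division of their reads is uncertain.

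Among 26 markers of adventitial and capsular fibroblasts, of which 25 were tested, 19 were higher in gp38+CD26+ and 1 was lower, with a median log2 fold change of 2.49 beside -0.04 over all genes tested. Over all genes tested, 1.8% were higher and 1.55% lower. Dpp4, the sorted gene, is among the 19. The list was chosen with earlier results of these data known. It holds capsular markers that the study named from its own cells, and genes with the largest changes here, such as Pi16, Ly6a, Efhd1 and Ackr3. The count is therefore a description and no independent test. Mfap5, a protein of the microfibrils on which elastic fibres form, had 1309, 1914 and 2998 CPM in gp38+CD26+ against 78.6, 147.8 and 219 CPM in gp38+CD26- libraries (log2 fold change 3.78 ± 0.267, adjusted p = 4.91e-06). Sema3c, a secreted guidance protein, was higher by 4.26 ± 0.415, and Cd55, which protects cells from complement, by 3.20 ± 0.337. The exception was Gdf10, a ligand of the TGF-beta family, which fell by 0.90 on the log2 scale (197 to 384.5 against 478 to 772 CPM, adjusted p = 0.0144).

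Of 20 tested markers of medullary fibroblasts, 7 were lower in gp38+CD26+, 1 was higher and 12 did not pass, with a median of -1.05. Serpine2, an inhibitor of thrombin and plasminogen activators, had 2030, 2451 and 3243 CPM in gp38+CD26+ against 4997, 7140 and 8408 CPM in gp38+CD26- libraries (log2 fold change -1.44 ± 0.146, adjusted p = 6.46e-05). The muscle-type intermediate filament gene Des fell by 2.26 on the log2 scale and Tenm4, which encodes a cell adhesion protein, by 1.70. Postn, a matrix protein that binds collagen, went the other way and was higher by 1.06 ± 0.141 in gp38+CD26+ (1138 to 1534 against 430 to 738 CPM). In single cells at P0, Postn was highest in the capsular fibroblast subtype CapFb2a, at 3792 CPM, with 3101 CPM in MedFb2a and 2432 CPM in CapFb4. Dpp4 had 3.30 CPM in CapFb2a, against 200 CPM in CapFb4. Of 9 tested mesothelium markers, 0 were called by edgeR (median -0.17), with 2 at an unadjusted p under 0.05 and, by DESeq2, 1 higher and 1 lower. The mesothelial regulator Wt1 had 23.9, 43.2 and 55.1 CPM against 0, 4.498 and 13.4 CPM (adjusted p = 0.108), and the keratin gene Krt18 had medians of 9.14 and 79.1 CPM (adjusted p = 0.0951). Krt18 is also on the epithelial marker list, with medians of 11615 CPM in sorted cortical and 1947 CPM in medullary epithelial cells at P0.

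**Figure D2:**
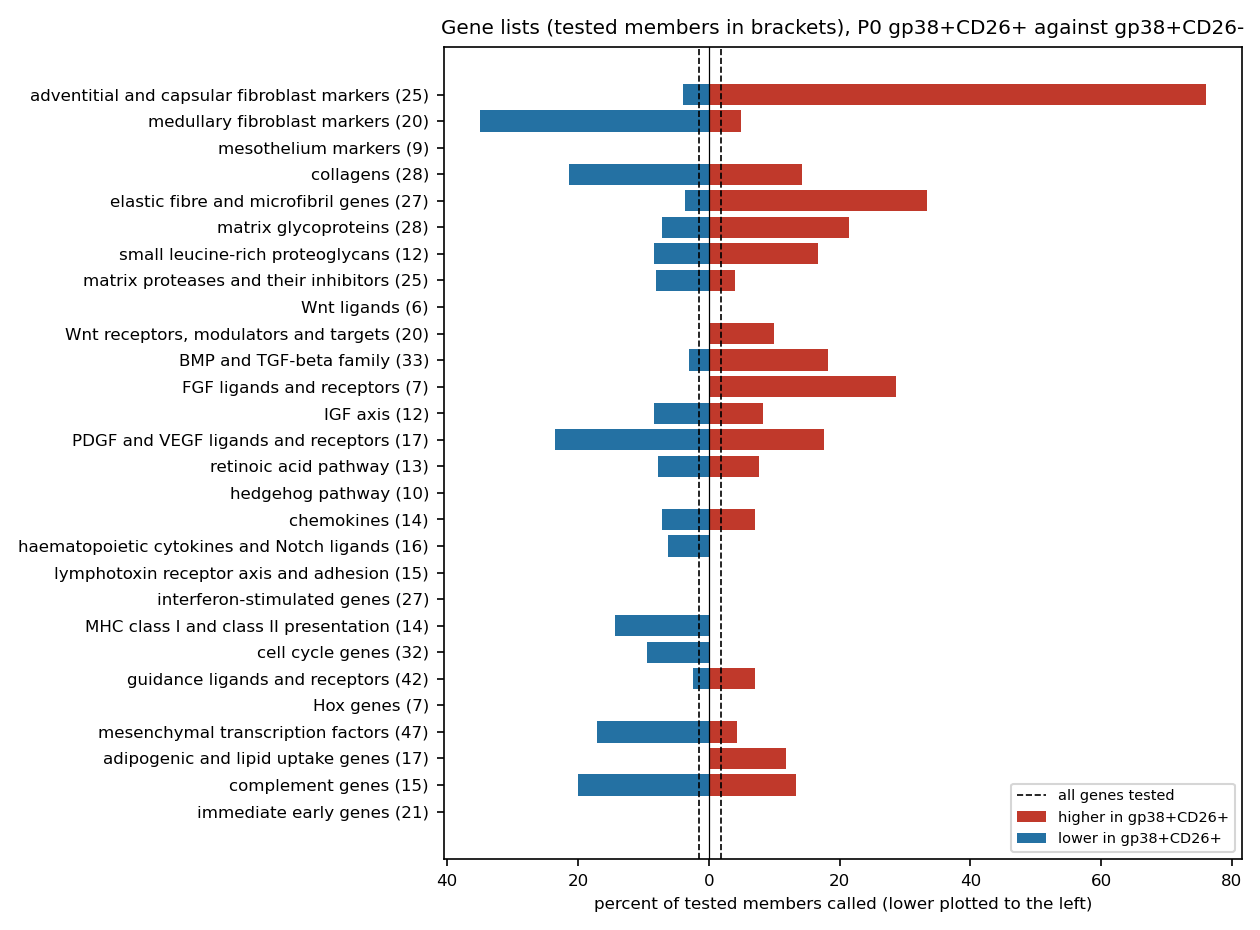
Percent of the tested members of each of 28 gene lists that were called higher (red, to the right) or lower (blue, to the left) in gp38+CD26+ at P0, with the tested members in brackets and dashed lines at the shares over all genes tested, 1.8% and 1.55%. The adventitial and capsular markers reach farthest to the right, with 19 of 25, and the medullary markers farthest to the left, with 7 of 20. The lists were chosen with earlier results of these data known, so these shares are descriptions.

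Leaving out replicate 4 moved the counts of 15 of the 28 lists. The collagens then had 6 higher and 7 lower, the matrix proteases and inhibitors 2 and 2, the matrix glycoproteins 6 and 3, the medullary markers 1 and 8, the BMP and TGF-beta family 5 and 1, the PDGF and VEGF genes 4 and 4, the guidance genes 3 and 2, the mesenchymal transcription factors 2 and 7, the complement genes 2 and 4, the MHC genes 0 and 3 and the interferon-stimulated genes 0 and 1. Among these, Col1a1 and Col3a1, the main fibrillar collagen genes, were called higher without it (adjusted p = 0.00388 and 0.00129) and not with it (adjusted p = 0.181 and 0.0735). The elastic fibre, chemokine, cytokine and cell cycle counts are given with their lists.

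The matrix genes that were called went in both directions. Here and in the lists below, the counts stand beside 1.8% higher and 1.55% lower over all genes tested. Where a list has only 1 or 2 genes called in a direction, these are given as single genes and not as a result about the list. Of 27 tested elastic fibre and microfibril genes, 9 were higher in gp38+CD26+ and 1, Ltbp1, was lower (median 0.83), and without replicate 4 these counts were 12 and 1. Mfap4, a microfibril-associated protein, was higher by 3.07 ± 0.262, Fbln5, which links elastic fibres to cells, by 1.88 ± 0.183, and Lox, which cross-links elastin and collagen, by 1.28 ± 0.147. Of 28 tested collagens, 4 were higher and 6 lower (median -0.20). The higher ones were the fibrillar collagen genes Col1a2 (7274, 8647 and 10206 against 3986, 4952 and 5760 CPM) and Col5a3 and the fibril-associated Col12a1 and Col14a1. The lower ones were the basement membrane collagen genes Col4a1 and Col4a2, with Col4a1 at 272 to 587.5 against 641 to 1328 CPM, the collagen VI genes Col6a2, Col6a4 and Col6a5, and Col26a1.

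Of 28 tested matrix glycoproteins, 6 were higher and 2 lower (median 0.31). Smoc2, a calcium-binding protein of the matrix, was higher by 3.26 ± 0.25 (385 to 481 against 21.6 to 62.4 CPM) and Spon2 by 2.24 ± 0.403. Of 12 tested small leucine-rich proteoglycans, which bind collagen fibrils, 2 were higher and 1 lower (median 0.21). Dcn was higher by 0.81 ± 0.0991 and Ogn by 2.24 ± 0.31, while Ecm2 fell by 0.89 on the log2 scale. Of 25 tested matrix proteases and inhibitors, 1 was higher and 2 lower (median 0.23). The inhibitor gene Timp3 had 82.3, 306 and 349 CPM in gp38+CD26+ against 1479, 1856 and 3692 CPM in gp38+CD26- libraries (log2 fold change -2.98 ± 0.328, adjusted p = 0.000112), and its lowest value was that of replicate 4. The protease genes Adamts8 and Mmp23 changed by -1.86 ± 0.31 and 0.99 ± 0.233.

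Ligands and receptors of the growth factor families came next. Of 7 tested FGF ligands and receptors, 2 were higher in gp38+CD26+ (median 0.44), and these are the ligand genes Fgf7 (71.1, 97.3 and 145.8 against 31.7, 47.9 and 53.7 CPM; adjusted p = 0.00707) and Fgf10 (medians of 205 and 85.7 CPM; adjusted p = 0.0338), whose products act on epithelial cells. The Fgf7 values did not overlap and the Fgf10 values did. Of 33 tested BMP and TGF-beta family genes, 6 were higher and 1 lower (median 0.50). The higher ones were the ligands Bmp4 and Bmp7, the receptor gene Tgfbr2 (higher by 0.95 ± 0.166), the antagonist genes Chrdl1 (2.79 ± 0.609) and Fst, and Fstl1 (0.63 ± 0.111).

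Of 17 tested PDGF and VEGF ligands and receptors, 3 were higher and 4 lower (median -0.04). The secreted factors Angptl2, Vegfd and Pdgfd were higher by 1.18 ± 0.14, 2.24 ± 0.329 and 1.56 ± 0.337. Pdgfa, Pdgfrb, Pdgfrl and Angpt2 were lower, with Angpt2, a ligand of the endothelial receptor Tie2, at 4.80 to 8.74 against 3.32 to 61.8 CPM. Of 12 tested genes of the IGF axis, 1 was higher and 1 lower (median 0.25), both of them binding proteins. Igfbp6 was higher by 2.06 ± 0.257 and Igfbp2 fell by 2.98 on the log2 scale (7.97, 14.3 and 27.5 against 70.02, 123 and 179.1 CPM). Of 13 tested retinoic acid genes, 1 was higher and 1 lower (median 0.17). Dhrs3, which reduces retinaldehyde to retinol, was higher by 1.60 ± 0.337, with replicate 4 at 1209 CPM and the rest of gp38+CD26+ at 343 to 492 CPM. Aldh1a2, which oxidizes retinaldehyde to retinoic acid, had 0, 3.93 and 12.2 CPM against 24.6, 37.2 and 64.6 CPM (log2 fold change -2.94 ± 0.756, adjusted p = 0.0487).

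Of 20 tested Wnt receptors, modulators and targets, 2 were higher (median 0.08), the receptor gene Fzd4 by 1.24 ± 0.168 and Dkk3 by 0.62 ± 0.145. Of 6 tested Wnt ligands (median 0.74) and 10 hedgehog genes (median -0.07), 0 passed the edgeR test, with 2 and 0 at an unadjusted p under 0.05 and, by DESeq2, 1 Wnt ligand higher and 0 hedgehog genes called. Wnt5a had medians of 22.2 and 10.0 CPM (adjusted p = 0.0909) and Wnt2 of 22.3 and 3.69 CPM (adjusted p = 0.22). The hedgehog genes with the smallest p were Cdon (adjusted p = 0.556) and Gli3 (adjusted p = 0.706). Of 42 tested guidance ligands and receptors, 3 were higher and 1 lower (median -0.29, or -0.30 with the gene that has no count in a population at its bound). Sema3c is among them, with Sema3d higher by 3.5 ± 0.815 and Epha3 by 0.89 ± 0.168. Ntng1, an axon guidance protein gene, had no count in any gp38+CD26+ library and 5.38 to 32.4 CPM in gp38+CD26-, so that it was at least 356.5-fold lower.

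Of 14 tested chemokines, 1 was higher and 1 lower (median 0.48), and without replicate 4 these counts were 2 and 1, with Cxcl5 also called higher. Ccl7, which attracts monocytes, had 215, 312 and 832 CPM against 37.2, 103.3 and 157 CPM (log2 fold change 2.11 ± 0.42), and the membrane-bound Cx3cl1 had 5.18, 12.9 and 25.2 CPM against 26.7, 71.9 and 186.7 CPM (log2 fold change -2.63 ± 0.458). Of 16 tested haematopoietic cytokines and Notch ligands, 0 were higher and 1 was lower (median 0.07), and without replicate 4 these counts were 2 and 1. The lower gene was Il34, a ligand of the macrophage receptor CSF1R, with 30.2, 48.0 and 71.4 CPM against 229, 269 and 289 CPM (log2 fold change -2.43 ± 0.193, adjusted p = 1.09e-05). The other two, called without replicate 4, were Csf1, which sustains macrophages (adjusted p = 0.00309 without and 0.155 with it, where replicate 4 had the lowest value of its group), and Kitl, the ligand of the receptor KIT (adjusted p of 0.0424 and 0.0715). Of 15 tested genes of the lymphotoxin receptor axis and adhesion, 0 passed the edgeR test (median -0.17), with 9 at an unadjusted p under 0.05 and, by DESeq2, 2 higher and 1 lower. In this list the B cell chemokine gene Cxcl13 had 493 to 1304 CPM in gp38+CD26+ and 2.17 to 21.4 CPM in 5 gp38+CD26- libraries, with replicate 6 at 346 CPM (adjusted p = 0.10), and Tnfrsf1b had medians of 25.5 and 8.74 CPM (adjusted p = 0.133).

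Of 14 tested genes of MHC class I and class II presentation, 2 were lower in gp38+CD26+ (median -1.16). Cd74, the invariant chain of class II, had 0.192, 6.24 and 22.9 CPM against 35.4, 84.2 and 161.3 CPM (log2 fold change -3.26 ± 0.712), and the immunoproteasome gene Psmb8 fell by 1.34 on the log2 scale. Cd74 had a median of 20786 CPM in sorted cortical and 54415 CPM in medullary epithelial cells at P0, and the 12 epithelial markers summed to 4.38 to 57.9 CPM in gp38+CD26+ against 10.2 to 386 CPM in gp38+CD26- libraries, with Prss16 called lower. The study describes an EpCAM gate, and the labels of these libraries name CD45 alone. The part of epithelial cells in the Cd74 result was not tested. Of 27 tested interferon-stimulated genes, 0 passed the edgeR test (median -0.18), with 3 at an unadjusted p under 0.05 and 1 lower by DESeq2. In this list Irgm1 had an adjusted p of 0.126. Of 15 tested complement genes, 2 were higher and 3 lower (median 0.02), among the latter Colec12 (-0.80 ± 0.16) and C1s1 (-0.49 ± 0.122).

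Of 47 tested mesenchymal transcription factors, 2 were higher and 8 lower (median -0.32). Twist2 and Klf4 were higher. Heyl, an effector of Notch signalling, had 0, 3.28 and 9.65 CPM against 26.6, 93.6 and 133.6 CPM (log2 fold change -4.52 ± 0.759, adjusted p = 0.00369). Gata3, Sox9 and Nr2f2 fell by 1.89, 1.62 and 1.16 on the log2 scale. Of 7 tested Hox genes (median -0.15) and 21 immediate early genes (median 0.07), 0 passed the edgeR test, with 0 and 2 at an unadjusted p under 0.05 and, by DESeq2, 0 Hox genes called and 1 immediate early gene lower. The Hox genes with the smallest p were Hoxa3 (adjusted p = 0.699) and Hoxa2 (adjusted p = 0.752), and the immediate early genes were Hspa1a (adjusted p = 0.169), which has a near-identical copy, and Egr2 (adjusted p = 0.315). Of 32 tested cell cycle genes, 3 were lower (median -0.49), namely Rrm2, Kif20a and Ccnb1, with adjusted p of 0.046, 0.0465 and 0.0465, and without replicate 4 none of these 3 passed (adjusted p of 0.0674, 0.0602 and 0.0659) and another gene, Aurkb, was called lower. Of 17 tested adipogenic and lipid uptake genes, 2 were higher (median 0.23), the lipase gene Lpl by 0.95 ± 0.163 and the lipoprotein receptor gene Vldlr by 2.23 ± 0.419.

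The genes that were lower in gp38+CD26+ by the largest factors included markers of mural cells. Vtn, which encodes the adhesive protein vitronectin, had 0, 0.185 and 4.96 CPM in gp38+CD26+ against 109, 148.4 and 177 CPM in gp38+CD26- libraries (log2 fold change -6.69 ± 0.946, adjusted p = 0.000871). Rgs5, a regulator of G protein signalling in pericytes, had 0.0919, 4.11 and 23.5 CPM against 507.5, 681 and 1351 CPM (log2 fold change -6.63 ± 0.854, adjusted p = 0.000411). Neither gene overlapped between the populations, which the rule that picked them required. Apold1, Lzts1, Slc7a2, Emcn, Col6a4, Itga7 and Ednrb were lower with log2 fold changes of -6.25 to -5.14. Each had a median under 1 CPM in gp38+CD26+, and replicate 4 had 0 CPM for all of them except Itga7, at 0.192 CPM.

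Of 12 mural markers, 10 were tested and 7 were lower in gp38+CD26+ (Acta2, Myh11, Kcnj8, Abcc9, Rgs5, Notch3 and Higd1b). Their summed level ran from 284 to 475 CPM in gp38+CD26+, with a median of 440 CPM, and from 2113 to 2935 CPM in gp38+CD26-, with a median of 2355 CPM. Sorted Ly51+gp38- cells of the same age, the mural population of the study, held 28307 to 44219 CPM. No gp38+CD26+ library reached the lowest gp38+CD26- library, and 0 of the 12 markers were at 0 in all libraries. The 7 markers called lower are themselves among the genes lower in gp38+CD26+, so their level is no separate evidence about those genes. The part of mural cells in the other differences was not tested. In the other lists, endothelial markers summed to 58.1 to 131.8 CPM in gp38+CD26+ against 55.6 to 100.3 CPM in gp38+CD26- libraries, with 1 of 5 tested lower (Emcn) and Tie1 at 0, against 8491 to 13007 CPM in CD31+ cells. Thymocyte markers summed to 0 to 25.3 against 17.6 to 84.1 CPM, myeloid markers to 4.30 to 39.8 against 11.97 to 27.5 CPM, with Adgre1 and Itgax at 0, and erythroid markers to at most 3.05 CPM. Neural crest and glial markers summed to 13.8 to 59.4 against 10.9 to 284 CPM, with Sox10, Foxd3 and Mal among those at 0, and mesothelial markers to 147.7 to 841 against 255 to 522 CPM. The mesothelial list shares the keratin genes Krt8 and Krt18 with the epithelial list.

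**Figure D3:**
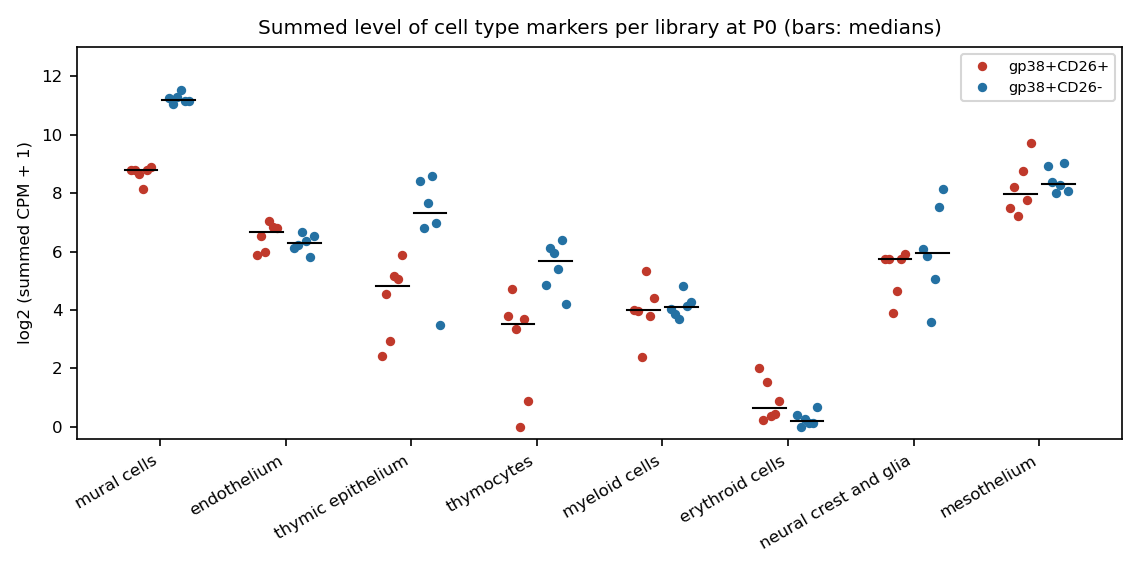
Summed level of marker genes of 8 cell types in each library, as log2 of summed CPM plus 1, with gp38+CD26+ in red, gp38+CD26- in blue and black bars at the medians. The mural markers are the set in which all gp38+CD26- libraries (2113 to 2935 CPM) lie far above all gp38+CD26+ libraries (284 to 475 CPM).

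The single-cell libraries of the same age, made from other cells and another assay, gave a second reading of where these genes are used. The 2 libraries at P0 held 4690 and 5713 cells with the deposited subtype labels, and 7 cell barcodes occurred in both. For each gene the subtype with the highest level was taken, over the 18 subtypes with at least 20 cells in each library and at a level of at least 10 CPM. This leaves out the mesothelium, which had 228 and 7 cells. Of 208 genes higher in gp38+CD26+, 77.4% had their highest level in a capsular fibroblast subtype, beside 23.6% of all genes tested, and 81 genes had it in the subtype CapFb4. Of 178 genes lower in gp38+CD26+, 34 (19.1%) were highest in a medullary fibroblast subtype, beside 11.8% of all genes, and 80 (44.9%) in pericytes or vascular smooth muscle cells, beside 13%. These shares are descriptions over genes, which are not replicates, and they pool the capsular subtypes. Dpp4 ranged from 3.30 CPM in CapFb2a to 200 CPM in CapFb4, with 27.1 CPM in CapFb1b and at most 19.9 CPM in a medullary subtype. In the study, the gp38+CD26- population at 4 weeks also included CapFb1 cells.

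A further 26 of the 208 higher and 35 (19.7%) of the 178 lower genes were highest in an endothelial subtype, beside 25.7% of all genes.

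Levels of single genes are given for both sides. Akr1c18 had 693.5 and 595 CPM in CapFb4 cells of the 2 libraries, and its next subtype, CapFb2b, 15.6 CPM. Pi16 had 2309 and 1705 CPM in CapFb4, and Mfap5 7570 and 7803 CPM. Rgs5 was highest in vascular smooth muscle cells, at 4189 and 6542 CPM, with 3211 CPM in pericytes. It had at most 594 CPM in a medullary fibroblast subtype and at most 428 CPM in a capsular one, CapFb2a. Vtn had 640 and 744 CPM in pericytes and 493 CPM in MedFb2a, and Col6a4 was highest in MedFb2a itself, at 62.8 and 49.2 CPM. Serpine2 was highest in MedFb2a, at 3440 and 2825 CPM, with 1499 CPM in pericytes and 1442 CPM in the capsular subtype CapFb1b. Other genes with large changes had their highest level outside fibroblasts and mural cells. Apold1 and Emcn, both lower in gp38+CD26+, were highest in the endothelial subtype EnVL (264 and 294 CPM, and 563 and 716 CPM), Lzts1 in the endothelial subtype EnC (11.7 and 12.9 CPM) and Ednrb in neural crest cells (269 and 594 CPM). Apold1, Emcn and Ednrb also had 135, 81.1 and 96.0 CPM in pericytes and up to 84.0, 77.3 and 131.7 CPM in a medullary fibroblast subtype, against at most 6.23, 12.1 and 2.30 CPM in a capsular one. Ly6c1, higher in gp38+CD26+, was highest in the endothelial subtype EnA, at 942 and 1175 CPM, with at most 319 CPM in a capsular fibroblast subtype.

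**Figure D4:**
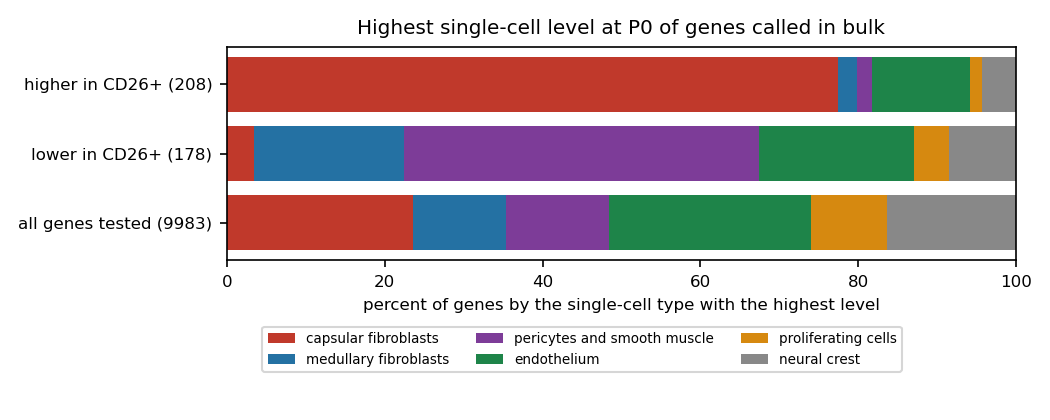
Share of genes by the single-cell type with their highest level at P0, for genes higher in gp38+CD26+ (208), lower in gp38+CD26+ (178) and all genes tested (9983) that had at least 10 CPM. Capsular fibroblasts take 77.4% of the higher genes, and pericytes with smooth muscle cells take 44.9% of the lower genes.

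The same sort at 4 weeks was used to ask which differences depend on age. The fit held 23 libraries, since replicate 2 of gp38+CD26+ at 4 weeks (S124) was left out for its low count. The CD26 difference was higher at P0 than at 4 weeks in 451 of 14066 genes, 3.21%, and lower in 251, 1.78%, and with S124 kept these shares were 2.32% and 1.06%. Both shares were lower still with a replicate block, whose values are given in the last section. Of the 401 genes called at P0, 86 of the higher and 45 of the lower ones differed between the ages, and since these genes were picked for their difference at P0, their share is not comparable with that over all genes. Dpp4, Pi16, Mfap5 and Rgs5 had log2 fold changes of 5.10, 6.32, 3.78 and -6.63 at P0 and of 7.81, 7.33, 4.71 and -7.26 at 4 weeks, and the test of the difference between ages did not pass for any of these 4 genes (adjusted p of 0.0863, 0.765, 0.212 and 0.85).

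Ly6a and Ifi205 separated the populations by more at birth than later. In the fit of 23 libraries, Ly6a had a median of 86.1 CPM in gp38+CD26+ against 3.77 CPM in gp38+CD26- libraries at P0, and of 357 and 348 CPM at 4 weeks, where the libraries overlapped (difference between ages 4.34 ± 0.398 log2 units, adjusted p = 6.29e-07). Ifi205 had medians of 30.1 and 1.95 CPM at P0 and of 109 and 84.3 CPM at 4 weeks (4.15 ± 0.718, adjusted p = 0.00128). In both genes the gp38+CD26- libraries lay below all gp38+CD26+ libraries at birth and within or near their range at 4 weeks. Other genes changed sides. Postn had medians of 1297 and 642 CPM at P0 and of 178 and 2207 CPM at 4 weeks (4.58 ± 0.295, adjusted p = 2.12e-09). Timp3 had medians of 289 and 1766 CPM at P0 and of 962 and 264 CPM at 4 weeks (-4.88 ± 0.369, adjusted p = 1.93e-08). Aldh1a2 had medians of 3.73 and 35.5 CPM at P0 and of 72.2 and 6.69 CPM at 4 weeks (-5.69 ± 1.02, adjusted p = 0.00186). In these 3 genes the CD26 difference passed the test at each age, with opposite signs.

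**Figure D5:**
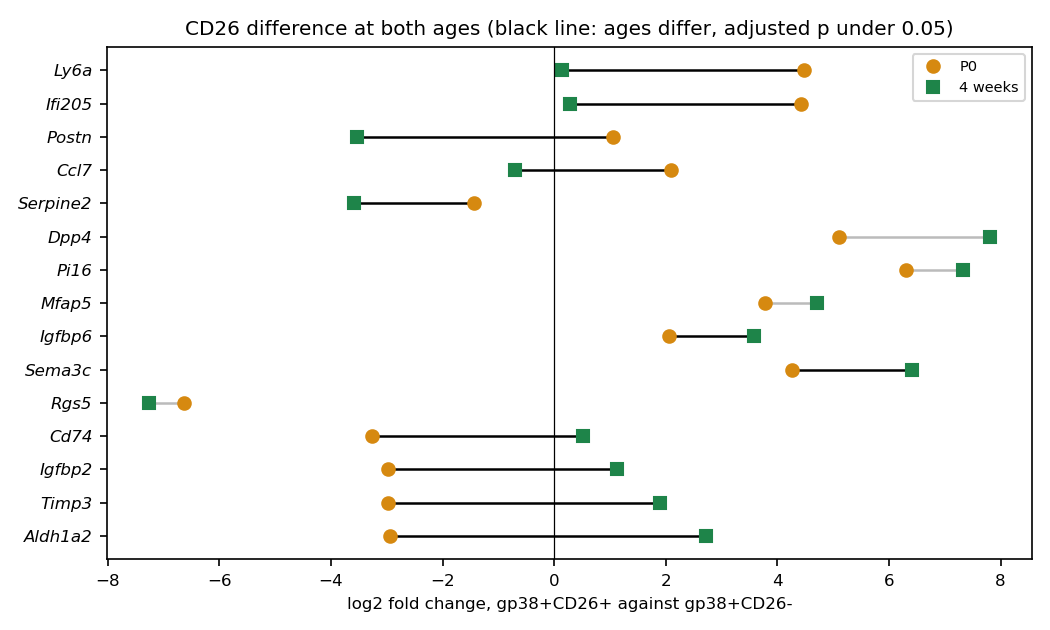
Log2 fold change of gp38+CD26+ against gp38+CD26- at P0 (orange circles) and at 4 weeks (green squares) for 15 named genes, joined by a black line where the ages differ at an adjusted p under 0.05 and a grey line where they do not. Postn, Timp3 and Aldh1a2 lie on opposite sides of 0 at the 2 ages.

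The genes with the largest differences between ages were silent in 1 or more of the groups, so that their fitted values are no measure of size. Mrgprg, Car8, Kdr, Faim2 and Col8a1 had a median of at most 0.0675 CPM in both populations at P0 and of 250, 23.7, 12.1, 19.6 and 270 CPM in gp38+CD26+ at 4 weeks. Slc16a12, Car4 and Pde1b had medians of 56.4, 53.3 and 53.8 CPM in gp38+CD26- at 4 weeks and of at most 6.31 CPM in either population at P0. Casp1 had a median of 21.9 CPM in that group, and Agt, the precursor of angiotensin, was read mainly at P0, with medians of 48.8 and 109 CPM.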

How the data were processed

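RNA of sorted populations was sequenced by the authors with an ultra-low input protocol, and the deposited bulk values are raw counts of reads, as whole numbers, for each Ensembl gene ID. The submitters' processing notes name Cell Ranger 3.1.0, STAR 2.5.3a, HTSeq and the builds GRCh38 and mm10, with no role given. The deposited single-cell counts are UMI counts per gene and cell, from which the authors had removed doublets, cells of few genes and contaminating clusters, and the deposited subtype labels were used unchanged. Rows of no gene, 9.36 to 16.6% of reads in the 12 libraries, were left out, and 37607 of 39179 gene IDs had a symbol. Whether bulk counting used strand is not given in the sources used here, so overlapping and antisense genes are uncertain.

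Genes were filtered with filterByExpr, scaled with TMM factors and tested with edgeR 4.0.16 (glmQLFit and glmQLFTest, R 4.3.3), with no covariate, on the 12 libraries. The difference between ages was a contrast of 4 groups in 1 fit. Adjusted p is by Benjamini-Hochberg over all genes tested, and SE is the fold change divided by the root of F. The code of the fit was also run on simulated counts with set differences, and the outcome is not reported here. Single-cell UMIs were summed per subtype and library. Alternatives were RLE factors, DESeq2 1.42.0, no filter, the title prefix, a block, all P0 populations in 1 fit, each prefix alone and each library left out. The 28 gene lists with their genes and the 8 marker lists were chosen with earlier results of these data known. Named were the genes of the sorted proteins, per direction the 10 largest changes (over 1 log2 unit, at least 20 CPM, no overlap, accepted symbol), up to 4 called genes per list with at least 5 CPM, else the 2 with the smallest p, and 5 per direction of the difference between ages. Genes named as list members or markers beyond this rule were named after their values were seen. A few of the genes so chosen are not reported here, and they stay in the counts. Limits from a count of 0 cover counting error only.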

Additional observations from a re-analysis of the deposited data

Results flagged for a closer look

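Replicate 4 of gp38+CD26+ at P0 had a first principal component score of 226, far from the next of its group at 14.1. In 24 of 194 groups of 6 libraries (97 tested genes in each of the 2 populations) 1 library lay far from the others. Chance flags about 1 in 20 groups of normally distributed values. That rate does not hold for groups with most libraries at or near 0 CPM, which are flagged more readily, so 24 is not shown to be an excess. Replicate 4 was that library in gp38+CD26+ for Ly6c1 (36.97 CPM), Timp3 (82.3 CPM), Fstl1 (6761 CPM), Dhrs3 (1209 CPM), Vldlr (286.6 CPM) and Pde1b (8.35 CPM). Replicate 5 of gp38+CD26+ was far from the others for Ptprc (4.10 CPM), Slc7a2 (3.496 CPM), Sema3c (603.8 CPM) and Ogn (897 CPM), replicate 1 for Pi16 (567 CPM), replicate 2 for Lzts1 (3.15 CPM) and replicate 3 for Ednrb (7.88 CPM). In gp38+CD26-, it was replicate 6 for Pi16 (17.8 CPM), Apold1 (3.29 CPM), Dhrs3 (299 CPM), Cdon (12.3 CPM), Cxcl13 (345.8 CPM) and Pde1b (45.4 CPM). It was replicate 1 for Angptl1 (4.19 CPM) and Efhd1 (2.09 CPM), replicate 4 for Dpp4 (26.8 CPM) and replicate 5 for Postn (429.6 CPM) and Col12a1 (32.3 CPM).

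The CD26 difference differed between the ages, by the contrast of both ages in 1 edgeR fit, in 35 of the named genes. The value is the log2 fold change at P0 minus that at 4 weeks. It was positive for Pdpn (0.77), Ly6c1 (2.52), Ly6a (4.34), Ifi205 (4.15), Serpine2 (2.14), Postn (4.58), Dcn (0.61), Angptl2 (0.88), Ccl7 (2.81), Cxcl13 (5.33), Lpl (0.97) and Colec12 (1.01). It was negative for Sema3c (-2.15), Krt18 (-4.02), Col14a1 (-1.14), Lox (-1.36), Timp3 (-4.88), Fstl1 (-0.83), Gdf10 (-1.33), Igfbp2 (-4.11), Igfbp6 (-1.53), Aldh1a2 (-5.69), Cd74 (-3.77), Rrm2 (-2.48) and Ntng1 (-7.13). The genes chosen for the size of this value were Slc16a12 (10.37), Car4 (9.73), Pde1b (9.54), Agt (8.16) and Casp1 (7.89) on the positive side and Mrgprg (-18.76), Car8 (-15.18), Kdr (-15.11), Faim2 (-13.48) and Col8a1 (-12.70) on the negative side, and most of these have groups at or near 0. With S124 kept, 10 of these 35 no longer passed (Pdpn, Sema3c, Col14a1, Lox, Dcn, Fstl1, Gdf10, Igfbp2, Igfbp6 and Lpl).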

How the results depend on the processing

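No named value changed sign under any alternative run, and of 2953 such values 2535 stayed on their side of the threshold, 395 no longer passed and 23 passed newly. Counts are given as percent of the genes tested in each fit, beside 1.8% higher and 1.55% lower at P0 (1.21% and 1.16% by over 1 log2 unit) and 3.21% and 1.78% for the ages. With DESeq2, 3.84% (460 genes) were higher and 3.72% (445 genes) lower at P0, 2.05% and 2.36% by over 1 log2 unit, and 3.28% had a lower CD26 difference at P0 than at 4 weeks. With all P0 populations in 1 fit, 1.41% were higher and 2.27% lower, 1.95% by over 1 log2 unit, and 35 of the 79 named genes called at P0 no longer passed, beside 10 with no filter and 12 with the replicate block. The TXCK libraries alone gave 1.05% higher, and the DFCK libraries alone 0.0585% higher and 0.00835% lower, in all and over 1 log2 unit alike. Of the 79 named genes, 29 no longer passed with the TXCK libraries alone and 72 with the DFCK libraries alone. With S124 kept, 1.06% had a lower CD26 difference at P0. Leaving out 1 library gave 1.28 to 1.90% higher and 1.09 to 2.11% lower genes at P0. Libraries at the same place in the S number order of both P0 populations lie 24 numbers apart and share their prefix. They correlated by 0.0202 to 0.0708, all positive, and pairs at different places by -0.0858 to 0.067. The same-place correlations were below the limit set for pairing, so the main fit did not take the libraries as paired. This check does not decide whether same-place libraries share a source. A replicate block gave 1.42% higher and 1.31% lower genes at P0 and 1.33% and 1.0% for the ages. With this block, 14 of 35 named genes no longer passed for the ages. These were Pdpn, Ly6c1, Sema3c, Krt18, Col14a1, Lox, Gdf10, Cd74, Ntng1, Slc16a12, Car4, Pde1b, Car8 and Faim2. Keeping the mesothelium, an alternative chosen after seeing the data, put 79.3% of the higher genes in capsular fibroblasts or mesothelium.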
